A study of Mus musculus with 28 samples.

Results

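Heart muscle of young and old mice was compared on 8 arrays of the 28 in the study, 4 from mice of 6 months and 4 from mice of 24 months. The mice of both ages were female C57BL/6J animals kept in groups on standard chow. They were killed at 24 or 103 weeks after an overnight fast, so fasting was common to both groups and no allele or drug was involved. The study set out to record expression in metabolic tissues of young and aged mice, and its other arrays hold gastrocnemius (8), liver (6) and quadriceps (6). All arrays labelled heart were taken, every gene was tested, and the labels do not say which chambers were included. They also do not say whether each array is a separate animal, so a heart below means 1 array. Myh6, the cardiac alpha myosin heavy chain that carries contraction in the adult mouse, stood between 13.16 and 13.29 on the log2 scale of the arrays in all 8. Its ages did not overlap, as in 3.29% of all genes (13.22 to 13.29 at 6 and 13.16 to 13.21 at 24 months). The difference in its mean was -0.07 (SE 0.04). Levels below are deposited log2 values, so a difference of 1 is a doubling of signal, and a level of 1 gene is not set against that of another.

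The heart is mostly cardiomyocytes by mass, with endothelial cells, fibroblasts and resident macrophages between them. Atria and ventricles use partly different genes: Myl7 (the atrial regulatory myosin light chain), Sln (sarcolipin, an inhibitor of the calcium pump) and Nppa (atrial natriuretic peptide) are far higher in atria. Cardiomyocytes burn mainly fatty acids, the more so in fasting, and carry a circadian clock of their own in which Arntl drives genes such as the Per family and Dbp.

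Array medians, which the normalization sets near each other, ran from 5.27 to 5.35, and correlations between arrays over genes from 0.9946 to 0.9972. No pair of arrays looked like a repeat deposit, since at most 3.31% of probe sets had equal values in any pair. The array of 24-month replicate 4 stood furthest off, with a mean correlation of 0.9953 to its own group and a fitted array weight of 0.419, against 0.843 to 1.406 for the others.

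Atrial genes differed widely between arrays of 1 age. Myl7 read 9.84, 9.01, 10.41 and 8.53 at 6 months and 6.34, 10.47, 8.95 and 7.07 at 24 months. Sln read 10.63, 9.91, 11.25 and 9.36 at 6 months and 6.82, 11.33, 10.07 and 7.0 at 24 months. Nppa read 12.57, 12.56, 12.98 and 12.69 at 6 months and 10.58, 12.91, 12.35 and 10.78 at 24 months. These 3 genes were low together in 24-month replicates 1 and 4, while 24-month replicate 2 read above every young heart for Myl7 and Sln and above 3 of the 4 for Nppa, so the ages overlapped. Bmp10, a secreted factor of the right atrial muscle, read 6.33, 8.60, 7.51 and 5.20 at 6 months and between 5.05 and 5.47 at 24 months, so it followed the other atrial genes only in part. Of the 11 atrial genes measured from a list of 12, all had a mean difference below 0, with a median of -0.44. None was called, and 3 reached an unadjusted p under 0.05 (Bmp10, Tbx5 and Nppa; without 24-month replicate 2, 7 did, and without 6-month replicate 1 or 3 or 24-month replicate 1 or 4, only 1). In whole tissue, fewer cells of a type and less RNA per cell cannot be told apart.

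Transcripts of liver origin also differed between the groups. Alb, serum albumin, read 7.84, 9.54, 5.96 and 6.42 at 6 months and 5.37, 5.10, 4.73 and 5.29 at 24 months. Mup20 and Mup3, major urinary proteins made by the liver, were likewise highest in 6-month replicates 1 and 2 (Mup20 6.56 and 7.69 there, 3.80 to 4.77 in the other 6). Of a list of 16 hepatocyte genes, all were measured, and their mean level was 5.74, 6.30, 5.39 and 5.37 at 6 months against 5.07 to 5.26 at 24 months. Alb, Mup20, Mup3 and this list were picked after the values were seen. The part that atrial or liver RNA plays in the results below was not tested, but the heart fit was repeated with the atrial and with the hepatocyte mean as a covariate, and without 6-month replicates 1 and 2 or 24-month replicates 1 and 4. The interaction fit with gastrocnemius was not. Of the 119 genes followed through these fits, 26 had a difference smaller by over 1.5 times with the hepatocyte covariate and 12 without 6-month replicates 1 and 2. Over all genes, 2.15% were then higher and 1.55% lower with that covariate, and 2.16% and 1.85% without those arrays (unadjusted p under 0.05).

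**Figure D1:**
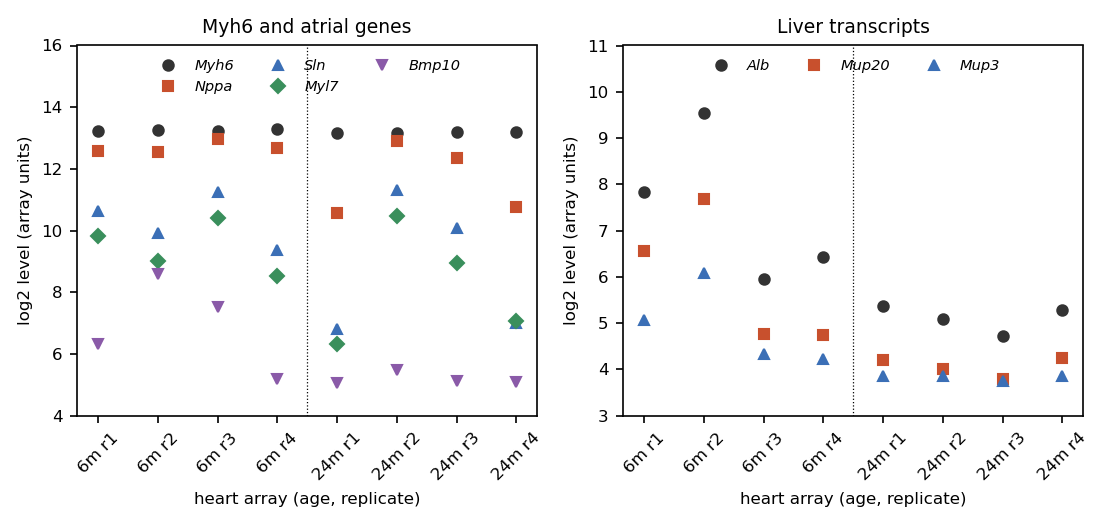
Log2 level of each gene on each of the 8 heart arrays (left, Myh6 and 4 atrial genes; right, 3 liver transcripts; the dotted line divides 6 from 24 months; each point is 1 array). Myh6 stays between 13.16 and 13.29, Myl7 drops to 6.34 and 7.07 in 24-month replicates 1 and 4, and Alb reaches 9.54 in 6-month replicate 2.

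Only Amtn and Prkcq passed the test over all genes. They are 2 of 30063 genes, or 0.00665% called at an adjusted p under 0.05, and both rose with age. None of the genes with a lower mean at 24 months was called (limma, with 631 such genes at an unadjusted p under 0.05). Other settings called between 0 and 49 features, as given with the processing alternatives at the end.

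Amtn encodes amelotin, a secreted protein of the enamel matrix made by ameloblasts late in tooth formation. It read 5.07, 5.25, 4.94 and 5.10 at 6 months and 6.24, 6.01, 5.95 and 5.92 at 24 months. Every old heart lay above every young one. The mean went from 5.09 ± 0.13 to 6.03 ± 0.14 (SD, n = 4 each), a difference of 0.94 with an SE of 0.08, or 1.92-fold. Its adjusted p was 0.0281 by limma. All young hearts read below the median of their array and all old hearts above it.

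Prkcq encodes protein kinase C theta, a diacylglycerol-activated kinase best known from T cell receptor signalling and from skeletal muscle. It read 6.95, 7.05, 6.99 and 6.70 at 6 months and 7.66, 7.67, 7.60 and 7.65 at 24 months. The old hearts lay close together and above every young heart. The mean went from 6.92 ± 0.15 to 7.64 ± 0.03 (SD, n = 4 each), a difference of 0.72 with an SE of 0.07, or 1.65-fold. Its adjusted p was 0.0348 by limma.

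The size of both differences held when arrays were left out, but the call did not. With 1 array left out at a time, the Amtn difference ran from 0.87 to 0.99 and that of Prkcq from 0.65 to 0.77. Both genes stayed called without 6-month replicate 2 or 4, Amtn also without 24-month replicate 1, and neither without 6-month replicate 1 or 3 or 24-month replicate 2, 3 or 4. Adjusted p-values over these fits ran from 0.0349 to 0.168 for Amtn and from 0.0152 to 0.168 for Prkcq. With the mean of Myl7, Nppa and Sln as a covariate, the differences were 0.88 and 0.74, and the adjusted p was 0.188 for each. With 24-month replicates 1 and 4 left out together they were 0.89 and 0.71, with the hepatocyte mean as a covariate 1.08 and 0.85, and neither gene was called in these fits (adjusted p = 0.173 for each gene without the arrays and 0.1004 with the covariate, limma).

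No relative of these genes was called with them. Of 13 protein kinase C and related kinase genes measured from a list of 15, Prkcq was the only member at an unadjusted p under 0.05, and the list's median difference was -0.01, against 0.01 over all genes. Of 14 genes measured from a list of 15 secreted calcium-binding phosphoproteins and enamel enzymes, Amtn was called and Sparc, a collagen-binding matrix protein, averaged 10.27 at 6 and 10.09 at 24 months. The enamel gene list had a median difference of 0.03. T cells also express Prkcq: of 16 T and NK cell genes measured, 2 were higher at an unadjusted p under 0.05 (12.5%, against 3.89% of all genes). These were Il7r, by 0.33, and Cd3e, by 0.17. The list's mean level ranged from 5.29 to 5.35 at 6 and from 5.30 to 5.43 at 24 months. The part of T cells in the Prkcq difference was not tested.

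**Figure D2:**
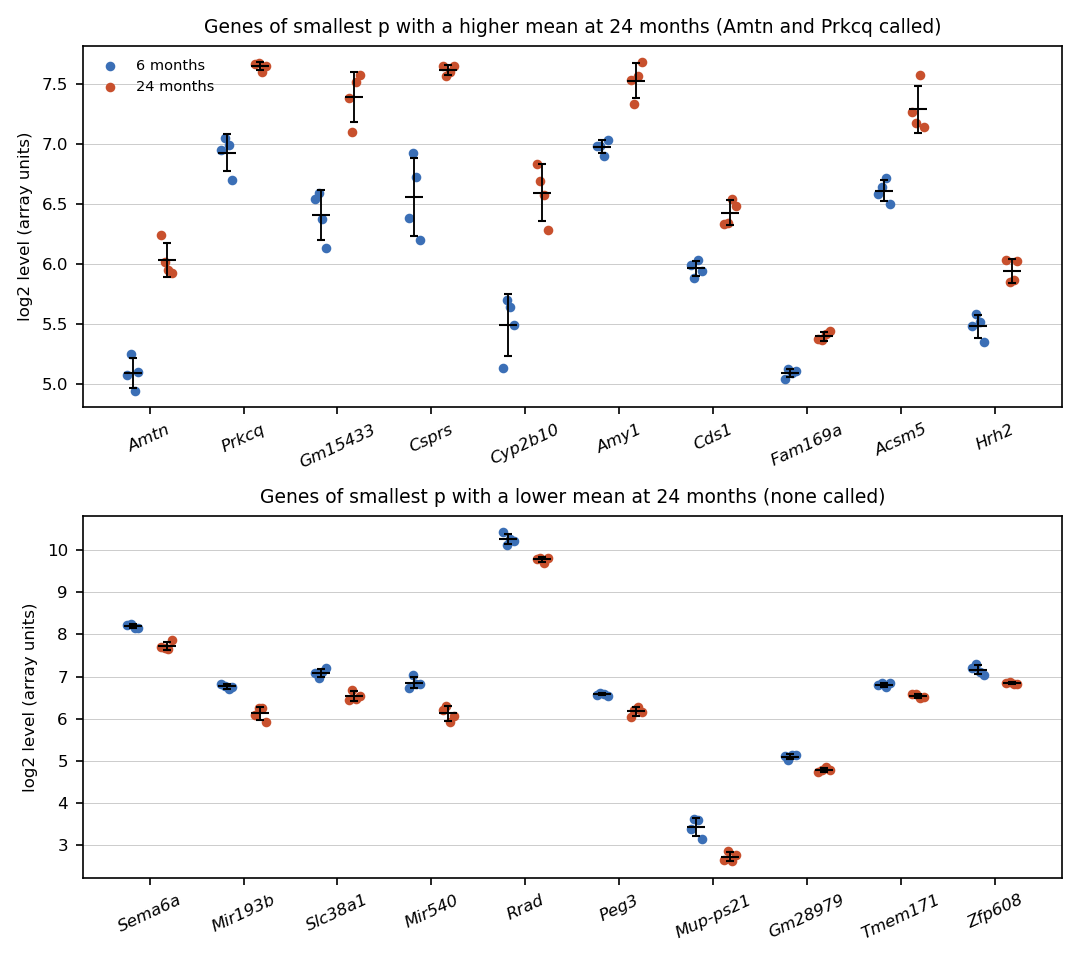
Log2 level of the 10 genes of smallest p in each direction on the 4 heart arrays of each age (points, 1 array each; black bars, mean and SD). Amtn and Prkcq, the genes called, sit at 5.92 to 6.24 and 7.60 to 7.67 in old hearts, above every young heart.

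Behind these stood 8 genes with a higher mean at 24 months and adjusted p-values from 0.0634 up, which missed the threshold. Csprs, a gene of a repeated cluster that also holds Sp100-related sequence, read 6.38, 6.92, 6.72 and 6.20 at 6 months and between 7.56 and 7.65 at 24 months (difference 1.06, SE 0.14). Gm15433, a pseudogene in the RefSeq table, read from 6.13 to 6.59 and from 7.10 to 7.57 (0.98, SE 0.12). Cyp2b10, a drug-metabolising cytochrome P450 induced in liver through the receptor CAR, read 5.13, 5.70, 5.64 and 5.49 at 6 months and 6.83, 6.69, 6.57 and 6.28 at 24 months (1.10, SE 0.14). In none of the 3 did the ages overlap. Csprs, Gm15433, Cyp2b10 and Amy1 shared an adjusted p of 0.0634 (limma).

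Amy1, salivary-type amylase, averaged 6.97 ± 0.05 at 6 and 7.53 ± 0.15 at 24 months (SD, n = 4 each). Acsm5, a mitochondrial medium-chain acyl-CoA synthetase, averaged 6.61 ± 0.09 and 7.29 ± 0.20 (SD, n = 4 each). Hrh2, the histamine receptor that raises cyclic AMP in heart muscle, averaged 5.48 ± 0.10 and 5.94 ± 0.10 (SD, n = 4 each). Cds1, a CDP-diacylglycerol synthase of phosphoinositide synthesis, differed by 0.46 (SE 0.06) and Fam169a by 0.30 (SE 0.04). All these genes separated the ages without overlap, and none was called. Csprs, Amy1 and Cyp2b10 belong to families of near-identical copies, so a probe set may read several of them.

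Among genes with a lower mean at 24 months, Sema6a, a transmembrane semaphorin that binds plexins, read 8.23, 8.25, 8.15 and 8.15 at 6 months and 7.70, 7.69, 7.65 and 7.86 at 24 months (-0.47, SE 0.06, adjusted p = 0.0634, limma). Slc38a1, a sodium-coupled transporter of glutamine and other neutral amino acids, read from 6.96 to 7.21 and from 6.44 to 6.69 (-0.55, SE 0.07, adjusted p = 0.0634, limma). Rrad, a small GTPase that restrains the L-type calcium channel, read 10.42, 10.13, 10.27 and 10.22 at 6 months and from 9.69 to 9.82 at 24 months (-0.48, SE 0.07). Its ages did not overlap, and its adjusted p was 0.0749 (limma). Peg3, an imprinted zinc finger gene read from the paternal allele, averaged 6.58 ± 0.03 and 6.18 ± 0.10 (SD, n = 4 each). The pseudogene Mup-ps21 (-0.71), Gm28979 (-0.32), Tmem171 (-0.27) and the zinc finger gene Zfp608 (-0.33) completed the 10 of smallest p. Mup-ps21, of the family of Mup20 and Mup3, averaged only 3.43 at 6 and 2.725 at 24 months, below the median of every array.

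The remaining genes of that group were microRNA genes, whose mature strands are shown because they are the microRNA genes among the 10 of smallest p. Capitals mark the seed, bases 2 to 8, which pairs with targets. Mir365-1 is shown beside them as a neighbour of Mir193b. The mature strands, from RefSeq on GRCm38.p6, read 5′ to 3′:
miR-193b-5p: cGGGGUUUugagggcgagauga
miR-193b-3p: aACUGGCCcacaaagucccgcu
miR-365-3p: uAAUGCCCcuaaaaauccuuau
miR-540-5p: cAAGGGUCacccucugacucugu
miR-540-3p: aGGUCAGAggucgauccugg

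The mature miR-193b strands lie at chr16:13449533-13449554 and chr16:13449570-13449591 on the plus strand of GRCm38.p6. The 3p seed of miR-193b is shared by 1 other mature strand of the RefSeq table, miR-193a-3p, and that of miR-540-3p by miR-6915-5p. Those of miR-540 lie at chr12:109586085-109586107 and chr12:109586122-109586141, plus strand, in the imprinted Dlk1-Dio3 region, whose microRNAs come from the maternal allele. None of the strands printed shares a seed with another printed here. The files do not say which part of a transcript a probe set reads, so primary transcript, hairpin and mature strand cannot be told apart.

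Mir193b read 6.83, 6.78, 6.70 and 6.76 at 6 months and 6.08, 6.26, 6.25 and 5.92 at 24 months. Mir540 read 6.72, 7.04, 6.83 and 6.83 at 6 months and 6.22, 6.31, 5.92 and 6.06 at 24 months. In both the ages were apart. Mir193b differed by -0.64 (SE 0.08) and Mir540 by -0.73 (SE 0.09), each with an adjusted p of 0.0634 (limma). Mir365-1, which starts 4238 bases after the Mir193b hairpin and was chosen after its values were seen, did not share the direction: it averaged 4.97 ± 0.22 and 5.23 ± 0.11 (SD, n = 4 each). Of 504 microRNA genes measured, 5.95% were higher and 4.96% lower at an unadjusted p under 0.05, against 3.89% and 2.1% of all genes. Their median difference was 0.01. Their median level at 6 months was 4.99, while the medians of the 6-month arrays ran from 5.29 to 5.33.

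Over all genes, 1800 (5.99%) had an unadjusted p under 0.05, 1169 with a higher mean at 24 months (3.89%) and 631 with a lower one (2.1%). In 990 genes (3.29%) the ages did not overlap, 582 higher (1.94%) and 408 lower (1.36%). The excess of higher over lower moved with the scaling. At an unadjusted p under 0.05, quantile normalization gave 1005 higher and 1026 lower, centring arrays on their medians 790 and 841, and cyclic loess 1063 and 923. The median over all genes was 0.01 as deposited and lay between -0.01 and -2e-04 under these scalings. Without 24-month replicate 4 the counts were 1761 higher and 1063 lower. The median SE over genes was 0.0637.

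**Figure D3:**
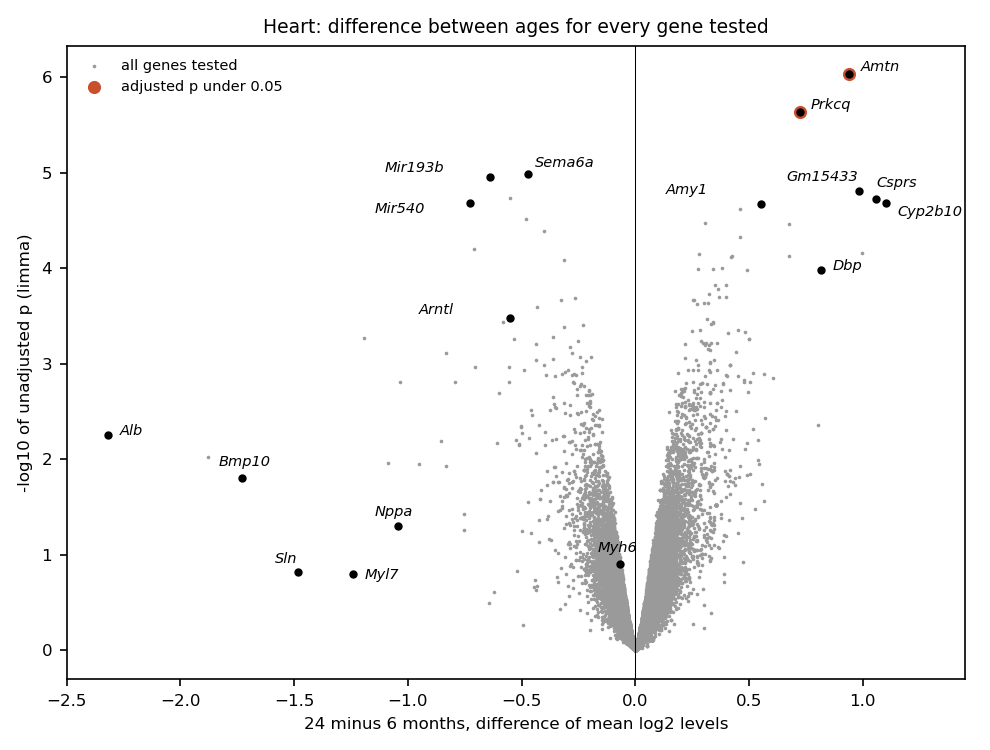
Each of 30063 genes by its difference between ages in mean log2 level (horizontal) and the -log10 of its unadjusted p by limma (vertical); orange rings mark Amtn and Prkcq. The widest differences include Alb at -2.32 and Bmp10 at -1.73, liver and atrial genes that vary between arrays of 1 age.

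In the main fit, the list with the highest share of members higher in old hearts was that of circadian clock genes. Lists described below had larger shares in other fits. With the hepatocyte covariate these were complement (5 of 18), class I (6 of 14) and class II (4 of 10), against 7 of 26 clock genes. Without 6-month replicates 1 and 2 they were class I (6 of 14) and class II (4 of 10), against 8 of 26. With the atrial covariate complement had 9 of 18, against 11 of 26. Without 6-month replicate 2 alone, complement (7 of 18) and class I (6 of 14) exceeded the clock list (10 of 26). Of 26 genes measured from a list of 28 clock and clock-linked glucocorticoid genes, none was called, 13 were higher at an unadjusted p under 0.05 (50%, against 3.89% of all genes) and 4 lower (15.4%, against 2.1%). The median difference was 0.18. Under the other scalings 11 to 14 were higher and 3 to 5 lower, with 1 array left out 10 to 16 and 3 to 5, and with the atrial covariate 11 and 4. That covariate fit had 5.69% of all genes at an unadjusted p under 0.05, 3.74% higher and 1.96% lower. In 9 of the 26 members the old hearts lay above all young ones (against 1.94% of all genes), and in 2 below (against 1.36%). The counts were lower without 6-month replicates 1 and 2, the arrays richest in liver transcripts (8 higher and 3 lower), and with the hepatocyte covariate (7 and 2). The list's median was then 0.13 and 0.11. The labels give no hour of sampling.

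Dbp had the widest difference of the list and is an output gene of the clock. It encodes a PAR-domain transcription factor whose level swings strongly over the day, and read 7.70, 7.4, 7.86 and 7.76 at 6 months and 8.48, 8.73, 8.17 and 8.61 at 24 months (0.82, SE 0.13, adjusted p = 0.113, limma). Per3, a period protein, read between 6.83 and 6.95 and between 7.15 and 7.2 (0.28, SE 0.04, adjusted p = 0.113, limma). Usp2, a deubiquitinase with a daily rhythm, read 8.82, 8.74, 8.94 and 8.93 against 9.13, 9.19, 9.25 and 9.26 (0.35, SE 0.06, adjusted p = 0.152, limma). In these 3 the ages did not overlap.

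The other members of the clock list named here were picked with their values in view. The repressors Per1 and Per2 averaged 0.54 and 0.45 more at 24 months (SE 0.17 and 0.09). Without 6-month replicates 1 and 2 the differences were 0.23 and 0.27, and with the hepatocyte covariate 0.16 and 0.26. Per1 overlapped between ages, with 8.86 in 6-month replicate 4 and 8.78 in 24-month replicate 2. Nr1d1 and Nr1d2, the REV-ERB receptors that repress Arntl, differed by 0.13 and 0.28 (SE 0.05 each). Tef and Hlf, PAR-domain relatives of Dbp, differed by 0.15 and 0.14, and Bhlhe40 and Bhlhe41, repressors that bind E-boxes, by 0.26 and 0.22.

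The 4 clock genes lower at an unadjusted p under 0.05 were Arntl, Npas2, Nfil3 and Rora. Arntl, the partner of Clock in the activating dimer, read 8.13, 8.28, 7.82 and 8.0 at 6 months and 7.58, 7.30, 7.56 and 7.58 at 24 months (-0.55, SE 0.10, adjusted p = 0.23, limma). Npas2, a paralog of Clock, read from 7.69 to 7.92 and from 7.34 to 7.59 (-0.36, SE 0.07, adjusted p = 0.273, limma). In both the ages were apart, and with the hepatocyte covariate Arntl differed by -0.37. Clock itself averaged 9.21 ± 0.09 and 9.04 ± 0.14 (SD, n = 4 each), and its ages overlapped. Nfil3, which competes with Dbp for D-boxes, differed by -0.18 (SE 0.06), and Rora, an activator of Arntl, by -0.17 (SE 0.07). Other Rora probe sets differed by -0.08 and -0.07 (unadjusted p = 0.169 and 0.31, limma). Those p-values come from the fit over every probe set, where the Rora probe set used had 0.0613 (limma). Rorb, a relative of Rora, had the opposite direction, with 0.29 (SE 0.07). The cryptochromes Cry1 and Cry2 differed by -0.05 and 0.10 and the glucocorticoid targets Fkbp5, Tsc22d3 and Sgk1 by 0.14, 0.18 and 0.18, each with overlapping ages and an unadjusted p above 0.05.

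**Figure D4:**
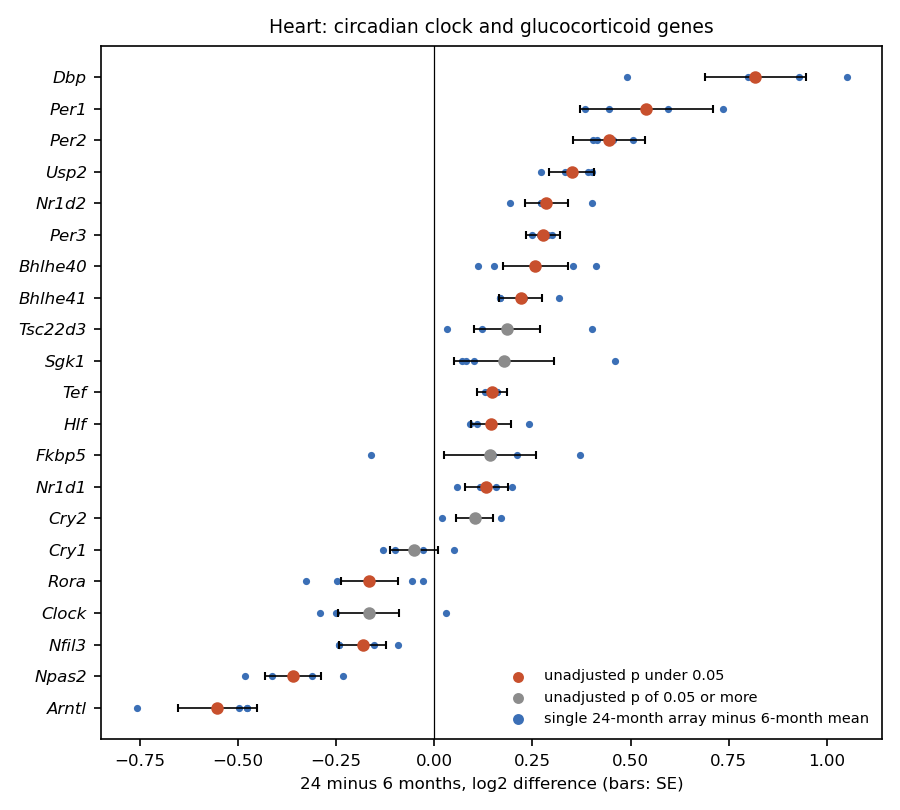
Difference between 24 and 6 months in mean log2 level for the clock genes among the 119 genes followed through the other fits. Not all of the 26 measured are drawn: Rorb and Noct, higher at an unadjusted p under 0.05, are among those left out. Large points carry the SE, and orange marks an unadjusted p under 0.05. Small blue points are each old heart minus the young mean. Dbp leads at 0.82 and Arntl ends the order at -0.55, with Npas2, Nfil3, Clock, Rora and Cry1 also below 0.

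Clock factors act through short promoter elements: the Arntl and Clock dimer binds E-boxes, PAR-domain factors and Nfil3 bind D-boxes, and REV-ERB and ROR receptors bind ROR elements. Promoters were scanned over the 250 bases before the start on both strands for CACGTG (E-box), TTATGTAA or TTACGTAA (D-box), and TAGGTCA or TGGGTCA (ROR element), motifs that do not contain each other. Of 26 clock genes, 23 had a window in the RefSeq table on GRCm38.p6. Of these, 7 held an E-box, 1 a D-box and 1 a ROR element, against 6.86%, 1.1% and 6.15% of all 27025 genes with a window. Genes with several starts have several windows. A match describes letters only.

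A window with each element is shown, 5′ to 3′ on the strand of the gene, with the element in capitals. Per1 lies on the plus strand at chr11:69098699-69098948 and its E-box begins 166 bases before the start. Per3 lies on the minus strand at chr4:151044666-151044915 and has D-boxes that begin 205 and 158 bases before the start. Nfil3 lies on the minus strand at chr13:52981040-52981289 and its ROR element, read on the opposite strand, begins 12 bases before the start.
Per1: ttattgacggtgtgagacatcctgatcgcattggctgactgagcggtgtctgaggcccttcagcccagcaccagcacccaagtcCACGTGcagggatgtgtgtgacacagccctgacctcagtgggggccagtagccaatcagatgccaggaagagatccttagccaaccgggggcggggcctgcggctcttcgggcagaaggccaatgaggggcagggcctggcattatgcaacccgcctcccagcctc
Per3: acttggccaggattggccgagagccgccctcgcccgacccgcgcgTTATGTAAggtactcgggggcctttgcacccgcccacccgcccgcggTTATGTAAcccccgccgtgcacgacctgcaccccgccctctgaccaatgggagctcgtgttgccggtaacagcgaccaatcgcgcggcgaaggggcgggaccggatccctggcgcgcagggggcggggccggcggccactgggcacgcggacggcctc
Nfil3: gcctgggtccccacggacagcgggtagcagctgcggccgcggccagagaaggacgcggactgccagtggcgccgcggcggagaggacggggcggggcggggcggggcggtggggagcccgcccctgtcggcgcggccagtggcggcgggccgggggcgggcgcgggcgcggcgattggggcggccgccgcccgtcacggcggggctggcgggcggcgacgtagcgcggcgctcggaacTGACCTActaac

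Element and direction were not matched across the list. Of the 7 genes with an E-box, Per1, Tef and Bhlhe41 were higher at an unadjusted p under 0.05, and Cry1, Fkbp5, Sgk1 and Klf15 did not reach it. The windows of Dbp, Arntl, Npas2, Nr1d1 and Nr1d2 held none of these letters, though some of these genes are known to carry such elements elsewhere.

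No gene of the immune lists was called. For every list below, the shares over all genes in the main fit were 3.89% higher and 2.1% lower. Of 18 complement genes measured, 7 were higher at an unadjusted p under 0.05 (38.9%) and 1 lower, with a median difference of 0.11. This count was 3 without 24-month replicate 2 or 3, 1 without 6-month replicates 1 and 2 together, 5 with the hepatocyte covariate and 9 with the atrial covariate. C4b, a component of the classical pathway, read 6.92, 7.17, 7.12 and 6.73 at 6 months and 7.16, 7.63, 7.46 and 7.26 at 24 months, with 1 old heart inside the young range. Its near-identical copy C4a averaged 6.55 and 6.78, and the probes may not tell them apart. Cfp, properdin, which stabilises the alternative pathway, averaged 6.66 ± 0.04 and 6.84 ± 0.10 (SD, n = 4 each).

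Of 14 class I antigen presentation and immunoproteasome genes, 5 were higher (35.7%), with H2-T10, H2-D1 and H2-K1 at 0.13, 0.18 and 0.20. With arrays centred on their medians none of the 14 reached an unadjusted p under 0.05, as without 24-month replicates 1 and 4 together, with the atrial covariate 1 did, and without 6-month replicate 1 or 4 or 24-month replicate 2 also 1. These class I genes are near-identical in part. Of 36 cytokine genes, 6 were higher (16.7%) and 2 lower (5.56%). Cxcl14, a chemokine of epithelia and stroma, averaged 7.38 ± 0.05 and 7.65 ± 0.05 (SD, n = 4 each), with an adjusted p of 0.174 by limma. Ccl6, a macrophage chemokine, differed by 0.28 and Ccl11, eotaxin, by 0.55 (SE 0.17), or 0.79 with the atrial covariate.

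Of 20 macrophage markers, 3 had an unadjusted p under 0.05, all higher (Ccr2 by 0.30, Gpnmb by 0.15 and C1qb by 0.26), and the list's mean level ranged from 6.84 to 6.98 at 6 and from 6.93 to 7.10 at 24 months, with overlap. With 1 array left out 1 to 4 were higher (1 without 6-month replicate 1 or 4 or 24-month replicate 2), and 6 with the atrial covariate. The part of macrophage number in the immune values was not tested. Of 35 interferon-response genes, 3 were higher (Oas2, Irf7 and Irf9 by 0.23, 0.13 and 0.18) and 1 lower. Without 6-month replicate 4 the counts were 1 and 5, under quantile normalization 3 and 3, with the atrial covariate 2 and 3, and with the hepatocyte covariate 6 and 0, so the list has no settled direction. The list's median was 0.02, and it fell below 0 when arrays were centred on their medians. No class II antigen presentation gene of 10 measured reached an unadjusted p under 0.05, though all 10 had differences above 0, and 4 reached it with the hepatocyte covariate.

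Of 23 cell cycle inhibitor, p53 target and secretory genes measured, 4 were higher (17.4%) and none lower. Cdkn2a, which encodes p16 and p19ARF and marks senescent cells in many tissues, read 5.46, 5.47, 5.44 and 5.47 at 6 months and 5.65, 5.67, 5.55 and 5.55 at 24 months. The ages were apart, by a difference of 0.14 (SE 0.04, adjusted p = 0.586, limma). Cdkn2c, another INK4 inhibitor, averaged 0.18 more, and Gadd45b, a stress-induced gene, 0.44 more. Cdkn1a, which encodes p21, averaged 9.20 ± 0.34 and 9.54 ± 0.32 (SD, n = 4 each) with overlapping ages. None of 32 replication and mitosis genes reached an unadjusted p under 0.05.

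Of 28 antioxidant genes, 4 were higher (14.3%): Srxn1, Hmox1 and Nqo1, targets of the factor NRF2, differed by 0.21, 0.36 and 0.27, and none was lower. That count was 2 without 6-month replicate 4, and with the hepatocyte covariate none was higher. In the absence of 24-month replicate 4 it was 6, in a fit where 5.86% of all genes were higher. Of 27 endoplasmic reticulum stress genes, Chac1 and Ddit3, targets of ATF4, averaged 0.34 and 0.20 more, both without overlap. Another Ddit3 probe set, with a mean of 7.13 against 7.49 for the one used, differed by 0.08 (unadjusted p = 0.253, limma). Of 33 heat shock genes, 4 were lower (12.1%), among them the cochaperone Fkbp4 (-0.20) and Hspa4l (-0.14). The count of lower heat shock genes was 2 without 6-month replicate 3 or 24-month replicate 1 or 3. It was 8 without 24-month replicate 4, where 3.54% of all genes were lower. Of 27 immediate early genes, 3 were higher (11.1%) and 5 lower (18.5%). Fos read 8.15, 7.78, 7.70 and 7.82 at 6 months and 7.25, 7.60, 7.28 and 7.10 at 24 months, Zfp36l1 differed by -0.31 and Jun by -0.23.

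Of 31 stress and hypertrophy genes, some of which mark cardiac load, 8 were lower at an unadjusted p under 0.05 (25.8%) and 1 higher (3.23%). Lists share members, so these counts are not separate results. Fos, Jun and Atf3 are also counted as lower among immediate early genes and Nppa among atrial genes. The higher gene, Hmox1, is also counted among antioxidant genes. Nppb, brain natriuretic peptide, read 9.91, 10.25, 10.23 and 10.39 at 6 months and 9.81, 9.96, 9.35 and 9.65 at 24 months, with 1 old heart inside the young range. Its difference was -0.50 (SE 0.14, adjusted p = 0.479, limma), and -0.51 with the atrial covariate. Ccn1, a matricellular protein, differed by -0.36. The list's median was 0, and with the atrial covariate or without 6-month replicate 2 only 4 members were lower.

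Of 21 PPAR target and ketone genes measured from a list of 26, 6 were lower (28.6%) and 1 higher (4.76%). Angptl4, an inhibitor of lipoprotein lipase, read 9.11, 9.14, 8.76 and 8.65 at 6 months and 8.41, 8.34, 8.37 and 8.40 at 24 months. Its difference was -0.54 (SE 0.11, adjusted p = 0.273, limma), with the ages apart. It was -0.33 without 6-month replicates 1 and 2, which read highest, and -0.29 with the hepatocyte covariate. Plin2, which coats lipid droplets, differed by -0.23 and Pdk4, the kinase that shuts pyruvate dehydrogenase in fasting, by -0.15 (picked with its values in view). Bdh1, the first enzyme of ketone body use, read 7.68, 7.64, 7.84 and 7.41 at 6 months and 8.21, 8.03, 8.04 and 8.09 at 24 months (0.45, SE 0.09). With the atrial covariate the counts were the same, and without 6-month replicate 1, 2 or 4 or 24-month replicate 2 there were 4 lower genes. Without 6-month replicates 1 and 2 together there were 2, and with the hepatocyte covariate 1.

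None of 75 oxidative phosphorylation genes and none of 20 citric acid cycle genes reached an unadjusted p under 0.05, with medians of 0.02 and -0.03. Without 24-month replicate 4, 8 of the 75 oxidative phosphorylation genes were higher, in a fit where 5.86% of all genes were. Of 30 genes of fatty acid uptake and oxidation, 1 was higher (3.33%, against 3.89% of all genes), Acsl6, an acyl-CoA synthetase, by 0.17. Of 28 glucose genes, 1 was lower (Gys1, muscle glycogen synthase, by 0.11).

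Of 33 sarcomere genes, 2 were higher (6.06%, against 3.89% of all genes) and 3 lower (9.09%, against 2.1%). Without 6-month replicate 4 no sarcomere gene was lower. Tcap, the titin cap of the Z-disc, read 10.92, 10.91, 11.08 and 11.10 at 6 months and 11.45, 11.40, 11.37 and 11.17 at 24 months. Myot, a Z-disc protein, averaged 9.94 ± 0.20 and 10.45 ± 0.20 (SD, n = 4 each), and Myom2, an M-band protein, 11.85 ± 0.12 and 11.68 ± 0.05 (SD, n = 4 each). Both Z-disc genes had the ages apart. None of the 8 ventricular genes reached an unadjusted p under 0.05.

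Scn4b, a sodium channel subunit, read 7.25, 7.46, 7.18 and 6.96 at 6 months and 7.77, 7.67, 7.63 and 7.71 at 24 months (0.48, SE 0.09). Of 34 ion channel genes it was the only one higher (2.94%, against 3.89% of all genes), and 1 was lower (2.94%, against 2.1%). Kcnj12, an inward rectifier, differed by -0.11. Of 25 calcium-handling genes, 3 were higher (12%) and 2 lower (8%), with no higher ones without 6-month replicate 2 or 4. Itpr2, Cacnb2 and Mcu differed by -0.12, 0.15 and -0.12. Of 32 adrenergic and cyclic AMP genes, the phosphodiesterases Pde1c and Pde4b differed by -0.24 and -0.16 and Pde7a by 0.24, and 1 more was lower. Irs1, the insulin receptor substrate, read 7.88, 7.81, 7.71 and 7.81 at 6 months and 7.23, 7.09, 7.66 and 7.27 at 24 months, without overlap.

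Of 17 endothelial genes, 4 were lower (23.5%) and none higher, and this count was 3 to 5 with 1 array left out and 5 with the atrial covariate, but 1 with the hepatocyte covariate. Tek, the angiopoietin receptor TIE2, read 9.13, 9.16, 8.95 and 9.02 at 6 months and 8.76, 8.76, 8.75 and 8.87 at 24 months. Tie1 differed by -0.12 and Cldn5, a tight junction claudin, by -0.36 (SE 0.13). Of 22 collagen genes, 4 were lower (18.2%), with Col3a1, Col4a1 and Col5a2 at -0.21, -0.14 and -0.10. With the atrial covariate 1 was lower, as without 6-month replicate 2 or 24-month replicate 3, and with the hepatocyte covariate none. Of 49 other matrix genes, 3 were higher (6.12%, against 3.89% of all genes) and 5 lower (10.2%, against 2.1%). Only 1 was higher without 6-month replicate 1 or 24-month replicate 3 or 4, and 8 were lower without 6-month replicate 4. Efemp1, an elastic fibre-associated fibulin, differed by 0.36, and Nid1, a basement membrane protein, by -0.19. Of 13 fibroblast genes, Dpt and Fbln1 differed by -0.23 and -0.18 and none was higher. With the atrial or the hepatocyte covariate no fibroblast gene was lower, and with the latter 1 was higher. None was lower either without 6-month replicate 2 or 24-month replicate 1. In 48 of the 58 lists, a count of higher or lower members moved by over 1.5 times when 1 array was left out.

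**Figure D5:**
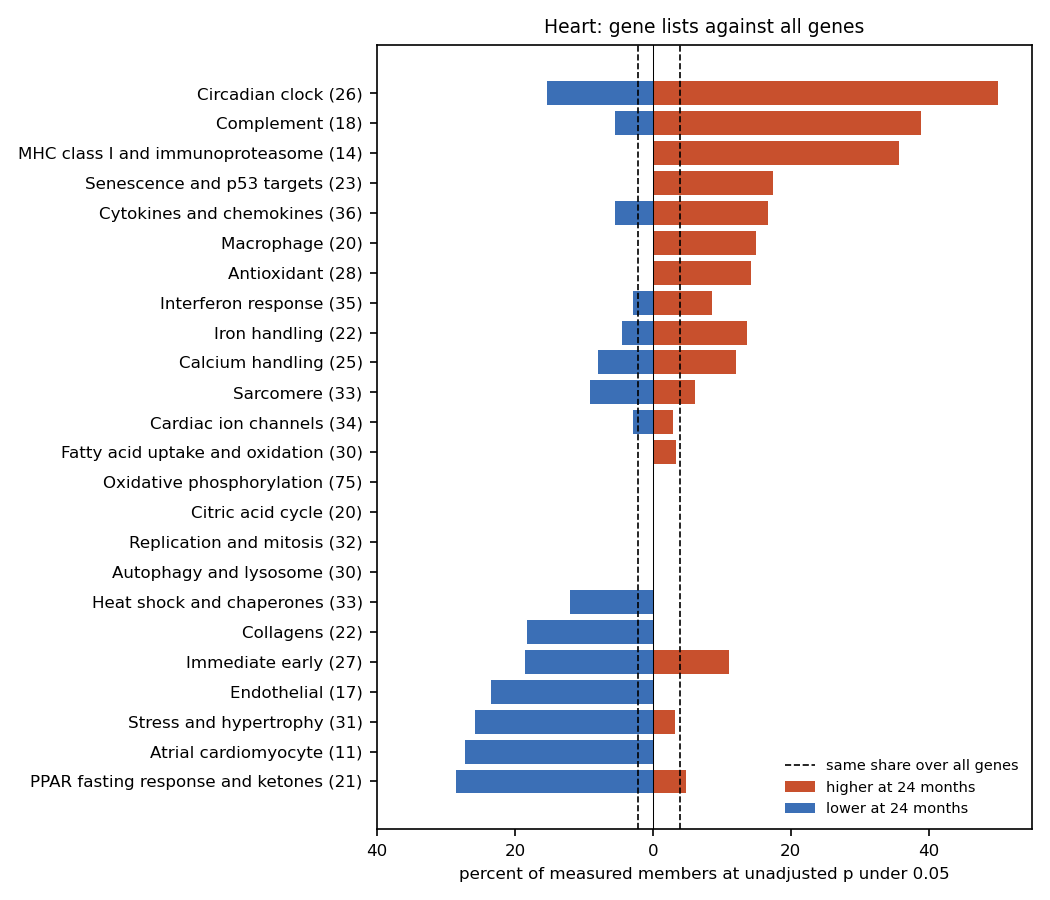
Percent of measured members with an unadjusted p under 0.05 (orange, higher mean at 24 months; blue, lower), for 24 of the 58 gene lists, with the number measured in brackets. Dashed lines mark the same shares over all genes, 3.89% and 2.1%; the clock list reaches 50% and 15.4%, and oxidative phosphorylation has none.

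Whether these age differences belong to the heart was asked against gastrocnemius, a leg muscle from mice of the same ages on the same table. The labels do not say whether both tissues came from the same mice, and the fit treated their arrays as independent. The age by tissue interaction called 179 genes (0.595%), 147 with a larger value in heart (0.489%) and 32 with a smaller one (0.106%). Gastrocnemius alone had 3 calls (0.00998%). Quantile normalization left 89 interaction calls, 51 larger and 38 smaller. Leaving out 1 array gave 22 (without heart 6-month replicate 1) to 547 (without gastrocnemius 24-month replicate 3), which is wide.

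Amtn and Prkcq differed between the muscles by this test. Their age differences in gastrocnemius were 0.01 and 0.00, and heart exceeded it by 0.93 (adjusted p = 0.00155, limma) and 0.72 (adjusted p = 0.0118, limma). Prkcq averaged 9.68 in gastrocnemius at both ages. Amtn averaged only 4.225 at 6 and 4.24 at 24 months there, a low level at which an age difference may not show. The interaction calls of Amtn and Prkcq held in each of the 16 fits with 1 array left out. In quadriceps Amtn and Prkcq differed by -0.09 and 0.18 and in liver by 0.30 and -0.12 (adjusted p from 0.0879 to 0.867, limma), on a table normalised apart. Cyp2b10 differed by -0.01 in gastrocnemius (interaction adjusted p = 0.0129), 0.13 in quadriceps and 0.73 in liver. Mir193b, Mir540, Slc38a1, Acsm5 and Zfp608 were likewise near 0 in gastrocnemius (0.12, 0.10, 0.15, 0.01 and 0.10) and passed the interaction test (adjusted p from 0.0122 to 0.0394, limma). Cyp2b10 (4.13 at both ages) and Acsm5 (4.56 at 6 and 4.58 at 24 months) also read low in gastrocnemius. Amy1 was called in gastrocnemius itself, where it rose by 0.75 (adjusted p = 0.0462, limma); the interaction was -0.20 (adjusted p = 0.474). Peg3 averaged -0.62 in gastrocnemius, -0.87 in quadriceps and -0.69 in liver, the last with an adjusted p of 0.049 (limma). Csprs, Gm15433 and Sema6a also went the same way in gastrocnemius as in heart, by 0.465, 0.325 and -0.29. None of them passed the interaction test (adjusted p = 0.299, 0.195 and 0.53, limma), so their differences were not shown to be particular to heart.

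In the other 6 genes of smallest interaction p the means went up in heart and down in gastrocnemius. Gm25985 differed by 0.34 in heart and -0.51 in gastrocnemius and Mir6240 by 0.17 and -0.47. Cdc34, a ubiquitin-conjugating enzyme, differed by 0.14 and -0.43, and C2cd2 by 0.14 and -0.43. Borcs6, of a complex that positions lysosomes, differed by 0.31 and -0.39 and Gm24950 by 0.33 and -0.23. None of these 6 was called in either tissue alone. Clock genes gave no interaction call: Dbp had 0.65 (adjusted p = 0.389) and Arntl -0.35 (adjusted p = 0.377, limma), and in liver the pair differed by 0.50 and -0.68.

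Genes most like Amtn and Prkcq in their values over arrays are given as a description, since age and tissue are shared by all points. Over the 8 heart arrays Amtn was followed by Polr2l (Pearson r 0.974), Rps19-ps1 and Rps19-ps2 (0.953 each), Cyp2b10 (0.95) and Endog (0.949). Over the 16 arrays with gastrocnemius they were Cyp2b10 (0.988), Cdkn2a (0.975), Hrh2 (0.973), Cpne4 (0.967) and Csprs (0.96). Cyp2b10 is in both sets. Prkcq was followed over the heart arrays by Ano5 (0.986), Csprs (0.981), Hrh2 (0.971), Sfxn1 (0.967) and H2-T10 (0.961), and over the 16 by Scn4b (0.994), Myot and Ano5 (0.993 each), Gm15352 and Zfp553 (0.989 each).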

How the data were processed

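Total RNA of heart was hybridised to Affymetrix transcriptome arrays. The authors deposited log2 values per probe set, made with RMA per the submitters' processing notes. RMA is a method that corrects background, equalises distributions and summarises probes, so a shift shared by most genes is removed. Its version and the genome build are not given in the sources used here. Heart and gastrocnemius share 1 table of 65956 probe sets. In the platform annotation 30604 probe sets had 1 symbol, 2146 had several and 33206 had none, and 1135 symbols were updated through RefSeq. The probe set of highest mean per gene was kept, giving 30063 genes.

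Ages were compared with limma 3.58.1 (lmFit and eBayes, R 4.3.3) on the 8 heart arrays, two-sided, with Benjamini-Hochberg adjustment over 30063 genes and calls at an adjusted p under 0.05. A fit over 16 arrays tested the age by tissue interaction. Liver and quadriceps were fitted alone, from a table normalised separately. Scripts were tested on simulated data. Genes and lists were chosen with earlier results of these data known. The text names the called genes filled to 10 in each direction by smallest p, up to 3 list members at an unadjusted p under 0.05, Myh6, Myl7, Nppa, Sln, Cdkn2a and Cdkn1a, the 8 genes of smallest interaction p and the 5 most correlated with each called gene. Deviations of same-numbered arrays of the ages correlated from -0.22 to -0.002, so numbers were not taken as pairs. The labels name no animals, and the spread behind each p may be technical. Array number limits the precision.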

Additional observations from a re-analysis of the deposited data

Results flagged for a closer look

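A single array stood apart from the other 3 of its age in 12 of 238 sets of 4 heart values, over 119 genes, by Dixon's test at its critical value for 4 samples. Chance alone flags about 1 in 20 such sets. At 24 months, replicate 2 stood apart for Bmp10 (5.47), Arntl (7.3) and Col5a2 (6.47). Replicate 3 of that age stood apart for Rrad (9.69), Sgk1 (8.38), Sparc (9.97) and Mup3 (3.76). Replicate 4 stood apart for Tek (8.87), Mcu (7.25) and Nqo1 (9.28). At 6 months, replicate 3 stood apart for Mir6240 (12.85) and Clock (9.07).

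The age difference of 17 named genes differed between heart and gastrocnemius by the interaction test. It was larger in heart by 1.1075 for Cyp2b10, 0.925 for Amtn, 0.85 for Gm25985, 0.72 for Prkcq, 0.7 for Scn4b and 0.695 for Borcs6. It was also larger for Acsm5 (0.6625), Mir6240 (0.64), C2cd2 (0.5725), Cdc34 (0.57), Gm24950 (0.55) and Tcap (0.54). The interaction was below 0 for Mir540 (-0.8325), Mir193b (-0.7575), Mup-ps21 (-0.7475), Slc38a1 (-0.705) and Zfp608 (-0.425). Mup-ps21 read low in both tissues, with group means from 2.71 to 3.43.

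Probe sets without a single gene symbol were left out of the gene comparison. When every probe set was tested, 38 of them were called in heart, 33 higher and 5 lower at 24 months. They held 17 distinct sets of values, since 24 of the probe sets fell into 3 groups with identical values. The widest difference was 1.59, at TC0100002709.mm.1, which read 3.84, 3.92, 3.92 and 3.80 at 6 months and 5.20, 5.51, 5.72 and 5.4 at 24 months. Of the 33 higher ones, 30 have identifiers that begin with TC01 or TC1_, as do those of Csprs and Gm15433. In gastrocnemius, 1 probe set from each of the sets of values of these 30 differed by 0.125 to 0.545, also higher at 24 months.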

How the results depend on the processing

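The count of 2 calls in heart moved little when the probe set of highest mean in heart or the mean of a gene's probe sets was used (2 each), with a minimum of 1.5-fold (2) and under cyclic loess (3). The count was 4 under quantile normalization and under array weights, 6 with arrays centred on their medians, 14 with an intensity trend and robust prior, 21 with dim genes left out, 25 in a joint fit with gastrocnemius and 49 with every probe set tested. Amtn and Prkcq were called in each of these. No gene was called at a threshold of 0.01 or with the atrial covariate of 3 genes or of the list (0 calls by limma, with 1800, 1711 and 1754 genes at an unadjusted p under 0.05). Leaving out 1 array gave 0 to 5 calls. With the replicate number as a block there were 0 calls (1552 at an unadjusted p under 0.05), and the adjusted p of both genes was 0.194 (limma). Alternatives added after seeing the data also gave 0 calls: without 24-month replicates 1 and 4 (1884), without 6-month replicates 1 and 2 (1207) and with the hepatocyte covariate (1111). The cause of these changes was not tested. With the hepatocyte covariate, Usp2 differed by 0.23, against 0.35 as deposited.

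Of the interaction with gastrocnemius, 179 calls became 89 under quantile normalization, 470 with dim genes left out, 152 with the replicate block, and 22 to 547 with 1 array left out. Myl7 and Sln changed sign, to 0.1364 and 0.1412 with the atrial covariate of 3 genes, 0.2963 and 0.3133 with that of the list, and 0.2625 and 0.4125 without 24-month replicates 1 and 4. These genes form part of both covariates. Medians of 25 of 58 lists changed sign with 1 array left out.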
